A study of Mus musculus with 12 samples.

Results

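The genes described here encode the subunits of oxidative phosphorylation, chosen by symbol from a table of RNA-sequencing counts of mouse pancreatic islets. Symbols had to begin with Ndufa, Ndufb, Ndufc, Ndufs or Ndufv (but not Ndufaf), Uqcr, Cox4 to Cox8, Atp5, mt-Nd, mt-Co, mt-Cytb or mt-Atp, or to be Sdha to Sdhd. Of 109 symbols that matched, 98 were annotated as protein coding and 11 as pseudogenes, which were left out. Of the 98, 87 had at least 10 counts in 3 libraries, and these are the members, out of 38561 genes in the table. Among the members, 8 are encoded by the mitochondrial genome and 79 by nuclear chromosomes. The nuclear encoded members comprise 38 of complex I, 4 of complex II, 8 of complex III, 13 of complex IV and 16 of complex V, assigned by symbol.

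Islets came from 12 male mice aged 11 weeks, each mouse giving 1 library, with 3 mice to a group. NOD_insHEL mice carried the transgene B6-Tg(ILK3mHEL)3Ccg, which the labels call insHEL, on the line NOD/LtJ;BR-H2k.129S7(B6)-Ragtm1Mom, and NOD mice were of that line without the transgene. B10_insHEL mice carried the same transgene on the line C57BL/10SnSg;BR-H2k.129S7(B6)-Ragtm1Mom, and B10 mice lacked it. Collagenase digestion included α-amanitin and actinomycin D, which block transcription, and islets were purified on a dextran gradient and picked. All 4 groups carried the MHC k haplotype, lacked a functional Rag gene (Rag-/-) and were normoglycemic. insHEL encodes hen egg lysozyme driven from an insulin promoter, so beta cells of transgenic mice make it, and its transcript was not measured here. The labels do not say that the transgenic and the other mice were littermates.

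Oxidative phosphorylation passes electrons from NADH through complex I, or from succinate through complex II, to complex III and on to complex IV, which reduces oxygen. Complexes I, III and IV pump protons across the inner mitochondrial membrane, and complex V, the ATP synthase, uses the gradient to make ATP. Complexes I, III, IV and V hold subunits from both genomes, while complex II is wholly nuclear encoded. In beta cells the ATP made in this way closes potassium channels and so couples glucose metabolism to insulin secretion.

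Library totals ran from 2212062 counts in NOD_insHEL replicate 3 to 21138456 in B10 replicate 2. Insulin transcripts held 22.4 to 25.6% of counts in NOD_insHEL and 23.3 to 24.3% in NOD. In B10_insHEL they held 16.3 to 21.6% and in B10 15.8 to 17.6%, below all NOD_insHEL and NOD libraries. All 16 beta cell markers reached 1 CPM (counts scaled to a common library size, adjusted by TMM) in at least 1 library. Their summed level was 266762 to 297792 CPM in NOD_insHEL and 258544 to 265660 in NOD. In B10_insHEL the beta cell sum was 209046 to 277270 CPM, and in B10 187699 to 208754 CPM. The part of beta cell content in the results was not tested. The acinar score, the mean log2 CPM of digestive enzyme genes of the exocrine pancreas, was 0.57 to 1.52 in NOD_insHEL, 2.13 to 2.76 in NOD, 0.28 to 5.95 in B10_insHEL and 6.45 to 6.83 in B10. B10_insHEL replicate 2, at 5.95, stood apart from replicates 1 and 3, at 1.03 and 0.28. Of the acinar list 26 of 29 genes reached 1 CPM in at least 1 library. The list's summed level was 62.3 to 114 CPM in NOD_insHEL and 167 to 288 in NOD. In B10_insHEL the sum was 47.2 to 2661 CPM, and in B10 it was 3789 to 4890 CPM. In the labels' description field all 3 B10 libraries carry numbers from a higher run than the remaining 9 libraries, and what the numbers stand for is not said. Should they mark batches, a batch difference and a group difference cannot be told apart wherever B10 is used, while NOD_insHEL against B10_insHEL and NOD_insHEL against NOD stay inside 1 run. Rag2 had 0 counts in all libraries and Rag1 had 13 to 141.

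The mitochondrial genome was read unevenly by the count table. Of its 13 protein-coding genes, 7 had 59 counts or more in every library, and the other 6 had at most 13 counts in any. mt-Cytb, the catalytic cytochrome b of complex III, had 21371 to 152815 counts per library, mt-Co1, the catalytic core of complex IV, had 17417 to 135030, and mt-Nd6, the only protein-coding gene on the light strand, had 59 to 298. mt-Co3, a core subunit of complex IV, had 0 to 13 counts, and was a member with too few counts to be tested. The 5 genes below the filter for members were mt-Co2 with 0 to 10 counts, mt-Atp6 with 0 to 11, mt-Nd3 and mt-Nd4l with 0 or 1, and mt-Atp8 with 0. A count of 0 allows a level of up to 0.142 CPM in the deepest library and 1.36 CPM in the shallowest, counting error only.

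Whole genes of low count matched annotated copies elsewhere in the genome. All spliced transcripts of GENCODE vM21 (GRCm38) were cut into 50-base windows, and the share of a gene's windows found in another gene was computed. This share was 100% for mt-Co2, 99.9% for mt-Co3, 99.5% for mt-Atp6, 98.8% for mt-Nd4l and 98.0% for mt-Nd3. The share was 62.2% for mt-Nd4, 51.1% for mt-Co1, 8.19% for mt-Nd2 and 7.61% for mt-Nd5, and 0% for mt-Nd1, mt-Nd6, mt-Cytb and mt-Atp8. The partners on chromosome 1 are 7 pseudogenes within chr1:24611535-24616197 (GRCm38), a nuclear copy of mitochondrial DNA. mt-Atp8 had 0 counts and no window shared with another annotated gene, and it overlaps mt-Atp6 in the annotation. It starts between mt-Co2 and mt-Atp6, whose partners lie at chr1:24614885-24615565 and chr1:24613974-24614651. The bases between these partners belong to no compared transcript, so whether they hold a copy of mt-Atp8 was not tested. The start of mt-Co3 is shown because its letters are those of the chromosome 1 copy, Gm28437, throughout. The 2 genes are identical over 783 of 783 bases compared. The stretch of mt-Co3 lies at chrM:8607-8726 on the plus strand, and that of Gm28437 at chr1:24613852-24613971 on the minus strand. No base is in capitals since none differs.
mt-Co3: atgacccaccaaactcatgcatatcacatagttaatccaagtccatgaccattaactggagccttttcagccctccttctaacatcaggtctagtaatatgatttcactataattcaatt
The counting mode is not given in the sources used here, and how reads matching both places were handled was not tested.

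**Figure D1:**
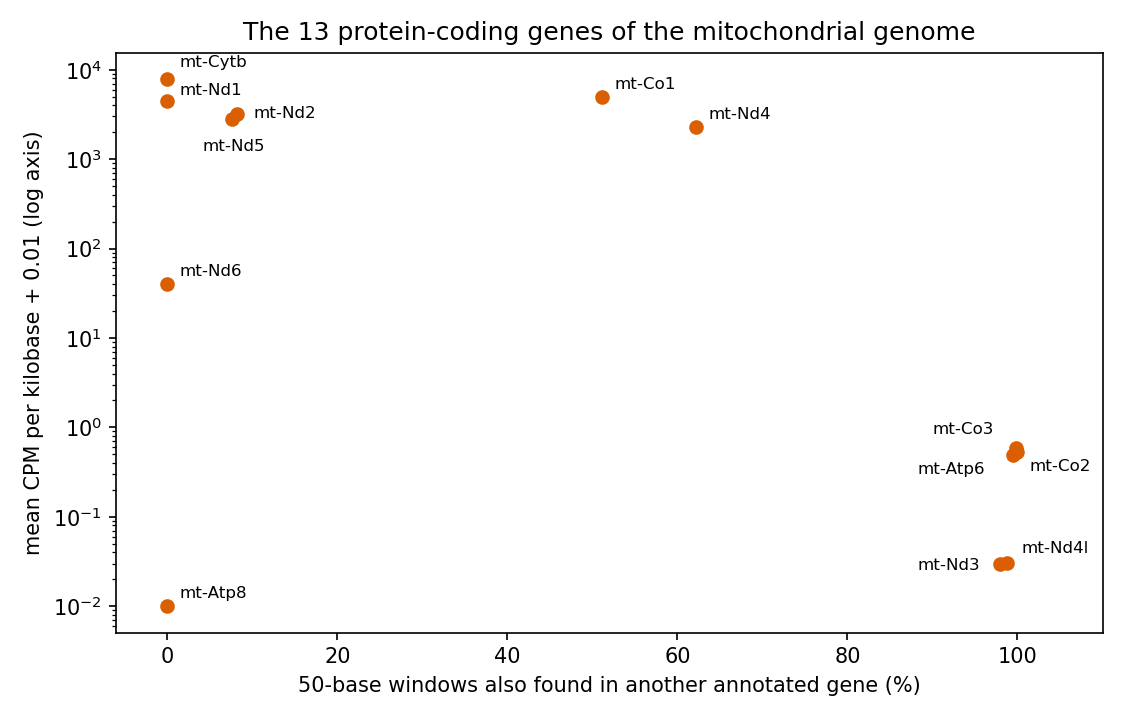
Mean level over the 12 libraries (CPM per kilobase of transcript plus 0.01, log axis) of the 13 protein-coding genes of the mitochondrial genome, against the share of their 50-base windows that also occur in another annotated gene (%). The 5 genes with a share of 98.0% or more lie below 1 CPM per kilobase, and mt-Atp8 lies at 0 with no shared window.

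Per kilobase, mitochondrially encoded transcripts were far above nuclear encoded ones. The 7 tested mitochondrially encoded members averaged 39.9 (mt-Nd6) to 7806 (mt-Cytb) CPM per kilobase, with a median of 3199. The 79 nuclear encoded members averaged 0.151 (Atp5l) to 150.3 (Atp5a1, the alpha subunit of the ATP synthase head) CPM per kilobase, with a median of 28.1. The highest nuclear encoded members of complexes II to IV were, by count, Cox4i1 of complex IV at 66.1 CPM per kilobase, Uqcrc2 of complex III at 55.9 and Sdha of complex II at 52.7.

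Summed over members, the mitochondrially encoded share of counts was higher in NOD islets than in the other groups. It was 2.75, 2.80 and 3.42% in NOD_insHEL, 3.54, 4.15 and 4.18% in NOD, 3.29, 2.69 and 3.15% in B10_insHEL, and 3.12, 2.60 and 3.20% in B10. The 3 NOD libraries lay above the other 9. In the library of fewest counts, NOD_insHEL replicate 3, the exact 95% binomial interval reached up to 3.44% around its 3.42%, so counting error was small beside the spread between mice. The nuclear encoded share was 0.503 ± 0.0201% in NOD_insHEL, 0.501 ± 0.0322% in NOD, 0.510 ± 0.0452% in B10_insHEL and 0.481 ± 0.0112% in B10 (mean ± SD, n = 3 each), and its libraries overlapped between all groups. In bulk islets, fewer cells of a type and less RNA per cell cannot be told apart.

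The ratio of mitochondrially to nuclear encoded counts within a library does not depend on scaling between libraries. The log2 ratio was 2.39, 2.53 and 2.77 in NOD_insHEL, 2.79, 3.16 and 2.99 in NOD, 2.68, 2.53 and 2.51 in B10_insHEL, and 2.66, 2.47 and 2.74 in B10. NOD was highest and its libraries did not overlap those of any other group, while the other 3 groups overlapped each other. The lowest NOD library and the highest NOD_insHEL library were close, at 2.79 and 2.77. The group means differed by 0.36 for NOD against B10, by -0.42 for NOD_insHEL against NOD, by -0.01 for NOD_insHEL against B10_insHEL and by -0.05 for B10_insHEL against B10, with a within-group SD of 0.16. These are differences of sums over members and carry no test. Without mt-Co1, mt-Co3 and mt-Nd4, the difference was 0.31 for NOD against B10 and -0.37 for NOD_insHEL against NOD. The separation of NOD did not hold there, since NOD replicate 1, at 2.15, lay below NOD_insHEL replicate 3, at 2.20, and B10 replicate 3, at 2.17. It was also lost when log2 CPM was averaged over members, and with mt-Cytb alone, the only mitochondrially encoded member that overlaps no other gene. In both cases NOD replicate 1 lay just below NOD_insHEL replicate 3. Endothelial markers moved in the same groups: their summed level was 1090 to 1278 CPM in NOD_insHEL, 1416 to 2032 in NOD, 1221 to 1291 in B10_insHEL and 1041 to 1156 in B10, 11 of 12 tested endothelial genes were higher in NOD than in B10, and 8 were lower in NOD_insHEL than in NOD. Their part in the result was not tested.

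**Figure D2:**
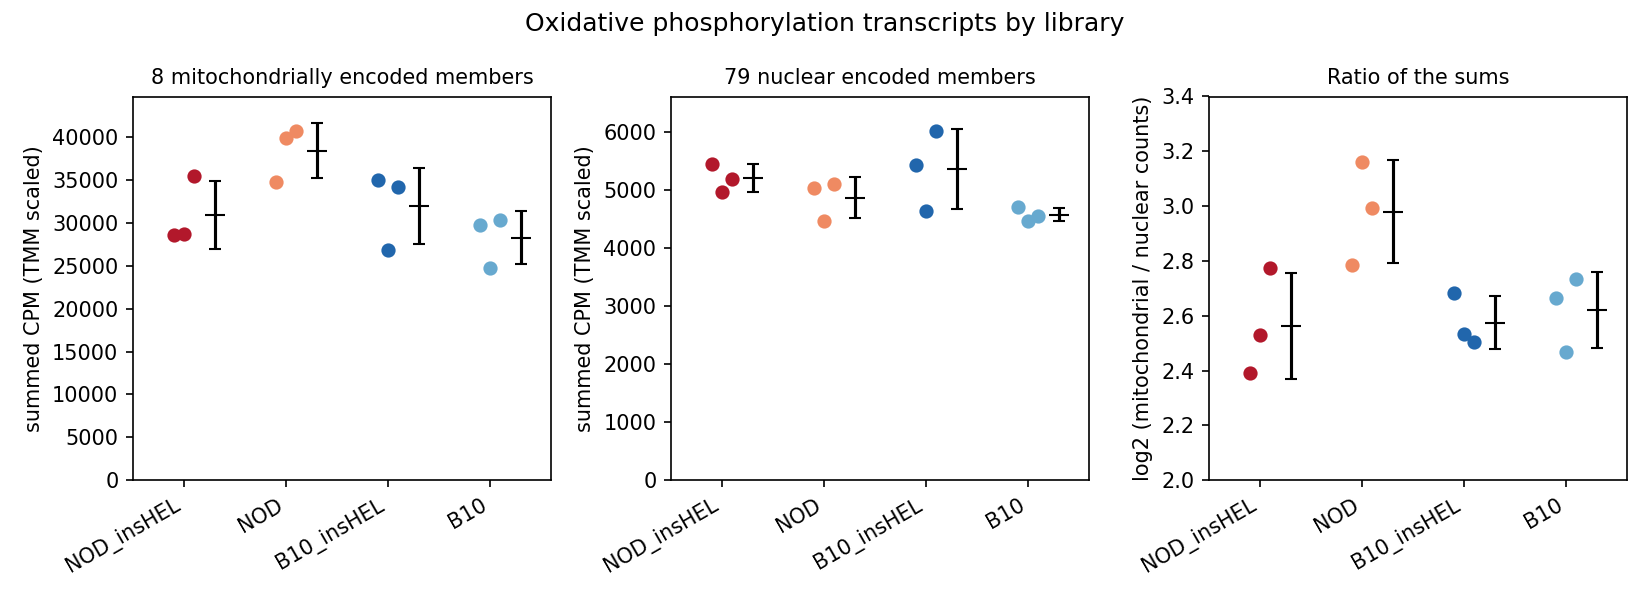
Summed CPM of the 8 mitochondrially encoded members (left) and of the 79 nuclear encoded members (middle), and the log2 ratio of the summed counts (right, axis from 2), by group. Points are libraries, bars are mean ± SD of 3 mice. The 3 NOD libraries have the highest log2 ratios, 2.79 to 3.16.

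Genes were tested with edgeR's quasi-likelihood F-test over 15352 genes, and a gene is called where its Benjamini-Hochberg adjusted p is under 0.05. In NOD against B10, 5 of 7 tested mitochondrially encoded members were higher and none lower, and of 79 nuclear encoded members 21 were higher and 8 lower. Over all genes 28.4% were called in this comparison, 13.5% higher and 14.9% lower, against 36.7% of the nuclear encoded members. The median log2 fold change was 0.48 over the mitochondrially encoded members, 0.24 over the nuclear encoded members and 0.03 over all genes. These counts depended on single libraries: without NOD replicate 3 they were 2 and 11, and without B10 replicate 2 they were 2 and 13. The nuclear count was also 13 without B10 replicate 3. Over all genes 2868 of 15628, 3018 of 15541 and 2995 of 15524 were called in these fits, in the same order. With all libraries 4353 of 15352 were. With acinar score added to the fit, 0 mitochondrially and 6 nuclear encoded members were called, 1 of them higher and 5 lower. Calls over all genes fell in that fit too, to 1260 of 15352, 578 higher and 682 lower. All 3 B10 libraries had high acinar scores, so that score and group cannot be told apart here.

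The strains were also compared among transgenic mice. In NOD_insHEL against B10_insHEL, none of the 7 mitochondrially encoded members was called (0 at an unadjusted p under 0.05, and 0 with DESeq2), with a median log2 fold change of -0.03. Of the nuclear encoded members 1 was higher and 6 lower, 8.86% against 12.1% of all genes (5.55% higher and 6.5% lower), with a median of -0.01. The difference between both strain comparisons, tested as the interaction, was called for none of the 86 members in edgeR or DESeq2, while 0.0586% of all genes were called in edgeR (0.0456% higher and 0.013% lower). At an unadjusted p under 0.05 the interaction held 6 of 7 mitochondrially encoded and 18 of 79 nuclear encoded members. The share of all genes at that threshold was not counted, so these counts cannot be read against it. All 7 mitochondrially encoded members had an interaction below 0, with a median of -0.52, where the interaction is the NOD transgene effect less the B10 one. Without B10_insHEL replicate 2, 5 nuclear encoded members were called lower in the interaction. Over all genes 162 of 15528 were called in that fit, 97 higher and 65 lower, against 9 of 15352 with all libraries.

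**Figure D3:**
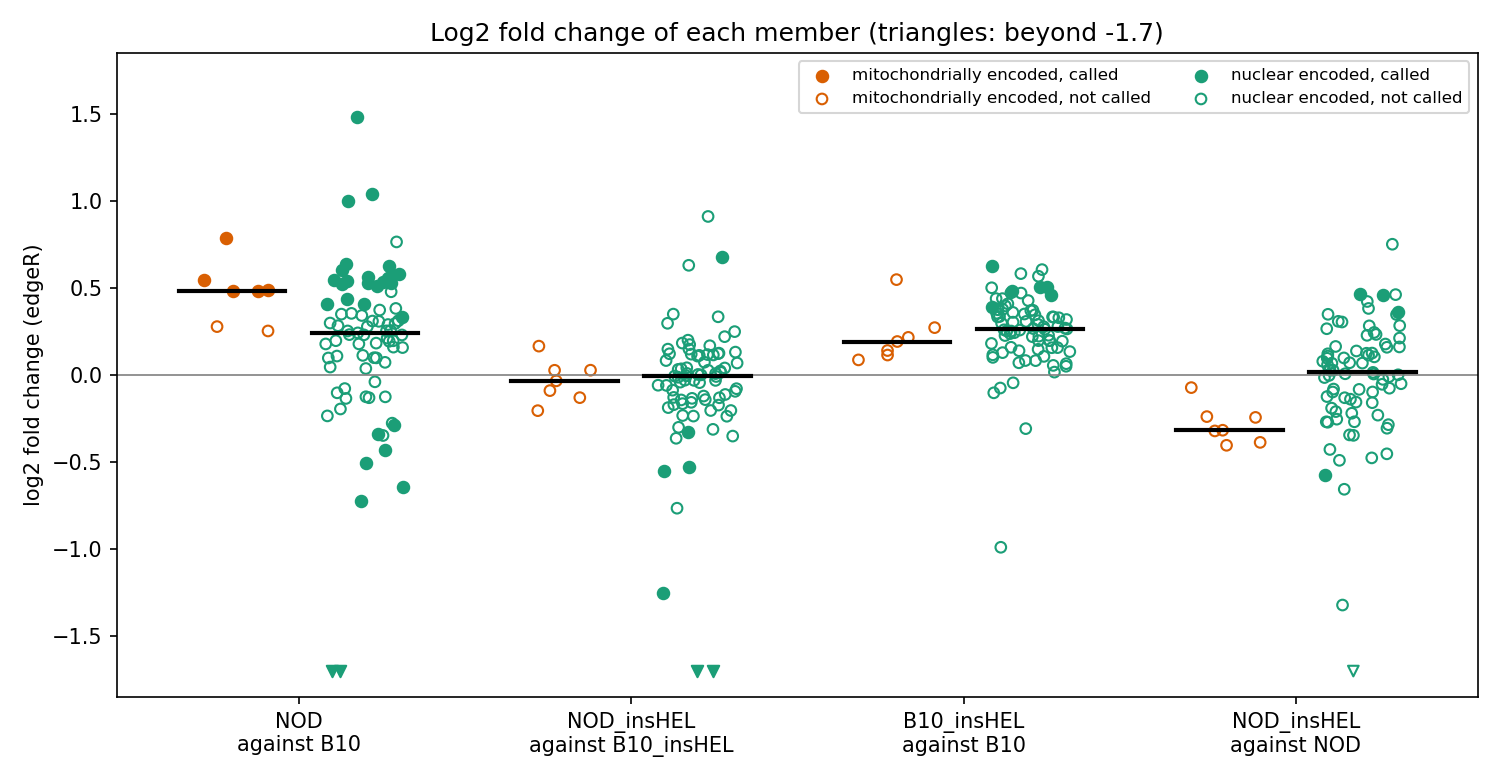
Log2 fold change (edgeR) of each tested member in 4 comparisons, mitochondrially encoded (orange, 7) and nuclear encoded (green, 79). Filled symbols are called, black lines are medians, and triangles stand for values beyond -1.7. In NOD against B10 the medians are 0.48 and 0.24, and in NOD_insHEL against NOD they are -0.32 and 0.02.

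Among mitochondrially encoded members, those of complex I and IV gave the largest called strain differences. mt-Co1 had 6910, 6679 and 8170 CPM in NOD_insHEL, 8761, 9803 and 10204 CPM in NOD, 7632, 6233 and 7481 CPM in B10_insHEL, and 7054, 5760 and 6890 CPM in B10. All 3 NOD libraries lay above the other 9. In NOD against B10 its log2 fold change was 0.55 (SE 0.13, adjusted p = 0.0029, edgeR), and averaged over the transgene it was 0.29 (SE 0.09, adjusted p = 0.0166). mt-Nd6 had 19.6, 23.7 and 27.7 CPM in NOD_insHEL, 21.9, 18.2 and 33.7 CPM in NOD, 21.5, 17.0 and 23.2 CPM in B10_insHEL, and 11.7, 13.4 and 17.1 CPM in B10. The B10 libraries were the lowest except that replicate 3 lay just above replicate 2 of B10_insHEL. Its log2 fold change was 0.79 in NOD against B10 (SE 0.21, adjusted p = 0.00827, edgeR) and 0.48 averaged (SE 0.15, adjusted p = 0.0196). mt-Nd6 lies opposite to the other protein-coding genes, and with the strand setting of the counting not given, reads from the opposite strand cannot be told apart.

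mt-Cytb had 8188, 8224 and 10025 CPM in NOD_insHEL, 9612, 11094 and 10574 CPM in NOD, 9687, 7572 and 9792 CPM in B10_insHEL, and 7853, 6563 and 7974 CPM in B10. NOD lay above B10 in every library and overlapped NOD_insHEL and B10_insHEL. Its log2 fold change in NOD against B10 was 0.48 (SE 0.13, adjusted p = 0.00906, edgeR). The complex I subunits mt-Nd1 and mt-Nd4 were called too, at 0.48 (adjusted p = 0.0231) and 0.49 (adjusted p = 0.0123), while mt-Nd2 at 0.25 (adjusted p = 0.179) and mt-Nd5 at 0.28 (adjusted p = 0.115) were not. Averaged over the transgene, mt-Nd1, mt-Nd2, mt-Nd4, mt-Nd5 and mt-Cytb had log2 fold changes of 0.02 to 0.26 and were not called. Without NOD replicate 3 the calls of mt-Nd1, mt-Nd4 and mt-Nd6 in NOD against B10 were lost, without B10 replicate 2 those of mt-Nd1, mt-Nd4 and mt-Cytb, and without NOD replicate 2 that of mt-Nd1. That of mt-Co1 was kept without any 1 library, and was lost with acinar score added to the fit (0.38, adjusted p = 0.239). The averaged call of mt-Co1 was lost without B10_insHEL replicate 2 or B10 replicate 2, and that of mt-Nd6 without NOD replicate 3 or B10 replicate 1.

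In NOD_insHEL against NOD all 7 tested mitochondrially encoded members had a log2 fold change below 0, from -0.40 (mt-Co1) to -0.07 (mt-Nd6), with a median of -0.32. None was called by edgeR, where 7.06% of all genes were (3.88% higher and 3.18% lower), and 4 had an unadjusted p under 0.05. mt-Co1 was nearest (adjusted p = 0.0547), and DESeq2 called 1 member lower. mt-Co1 and mt-Nd4 did not overlap between the groups. Without NOD_insHEL replicate 3, the library of fewest counts, 3 were called lower, and 1 was called without B10_insHEL replicate 2 or without B10_insHEL replicate 3. Over all genes 1348 of 15624, 1522 of 15528 and 1209 of 15729 were called in these fits, in the same order. With all libraries 1084 of 15352 were. In B10_insHEL against B10 all 7 were above 0 and none was called (6.85% of all genes were, 4.09% higher and 2.76% lower), 2 had an unadjusted p under 0.05, and DESeq2 called 0. For both comparisons the share of all genes at an unadjusted p under 0.05 was not counted. Group means of the mitochondrial ribosomal RNAs moved in these same directions, and neither RNA was called in either transgene comparison. mt-Rnr1 averaged 119 CPM in NOD_insHEL, 169 in NOD, 215 in B10_insHEL and 161 in B10. For mt-Rnr2 the means were 154, 250, 319 and 256 CPM. Their strain comparisons are given at the end.

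Averaged over the transgene, 2 of 7 mitochondrially encoded members were called, both higher in the NOD background, and of the 79 nuclear encoded members 15 were higher and 11 lower. The nuclear share called, 32.9%, was near the 33.3% of all genes (15.7% higher and 17.6% lower). The count of 26 was 17 without NOD replicate 3 or without B10 replicate 2, and the count of 2 was 1 without NOD replicate 3, B10_insHEL replicate 2, B10 replicate 1 or B10 replicate 2. Over all genes 4308 of 15628 were called without NOD replicate 3 and 4301 of 15541 without B10 replicate 2. By complex, 7 of 38 nuclear members of complex I were higher and 4 lower, 0 of 4 of complex II were higher and 3 lower, 1 of 8 of complex III was higher and 1 lower, 2 of 13 of complex IV were higher and 2 lower, and 5 of 16 of complex V were higher and 1 lower. With acinar score added to the fit, 13 were called, 1 higher and 12 lower. Calls over all genes fell in that fit too, to 2303 of 15352, 1037 higher and 1266 lower.

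Complex II, succinate dehydrogenase, also works in the tricarboxylic acid cycle. Its flavoprotein subunit Sdha had 195, 201 and 211 CPM in NOD_insHEL, 182, 163 and 170 CPM in NOD, 257.5, 246 and 256 CPM in B10_insHEL, and 226, 244 and 259.7 CPM in B10. Every library of the NOD background lay below every library of the B10 background. The averaged log2 fold change was -0.41 (SE 0.07, adjusted p = 0.000105, edgeR), and the call held under every alternative run. In NOD_insHEL against B10_insHEL it was -0.33 (SE 0.10, adjusted p = 0.0331), a call lost without either NOD_insHEL replicate 1 or 2 or B10_insHEL replicate 1 or 3 (adjusted p up to 0.123), with no filter on low counts, with only the groups compared, and with islet number added.

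Sdhc, which anchors the enzyme in the membrane, had 63.6, 61.6 and 67.5 CPM in NOD_insHEL, 59.7, 53.8 and 58.3 CPM in NOD, 93.4, 74.4 and 109 CPM in B10_insHEL, and 68.1, 77.1 and 71.9 CPM in B10. Again both backgrounds did not overlap, though the nearest libraries were 67.5 and 68.1 CPM. The averaged log2 fold change was -0.43 (SE 0.09, adjusted p = 0.000651, edgeR), and it was -0.53 in NOD_insHEL against B10_insHEL (SE 0.12, adjusted p = 0.00679). Both calls held under every alternative run. In NOD against B10 Sdhc was called lower too, a call lost with islet number added (-0.25, adjusted p = 0.256, edgeR). That call was also lost without NOD_insHEL replicate 1, NOD replicate 2 or 3, or B10 replicate 1, 2 or 3. The other anchor, Sdhd, was lower averaged (log2 fold change -0.21, adjusted p = 0.0449, edgeR), and the iron-sulfur subunit Sdhb was not called (-0.02, adjusted p = 0.905). For Sdhd the alternatives are not given here.

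**Figure D4:**
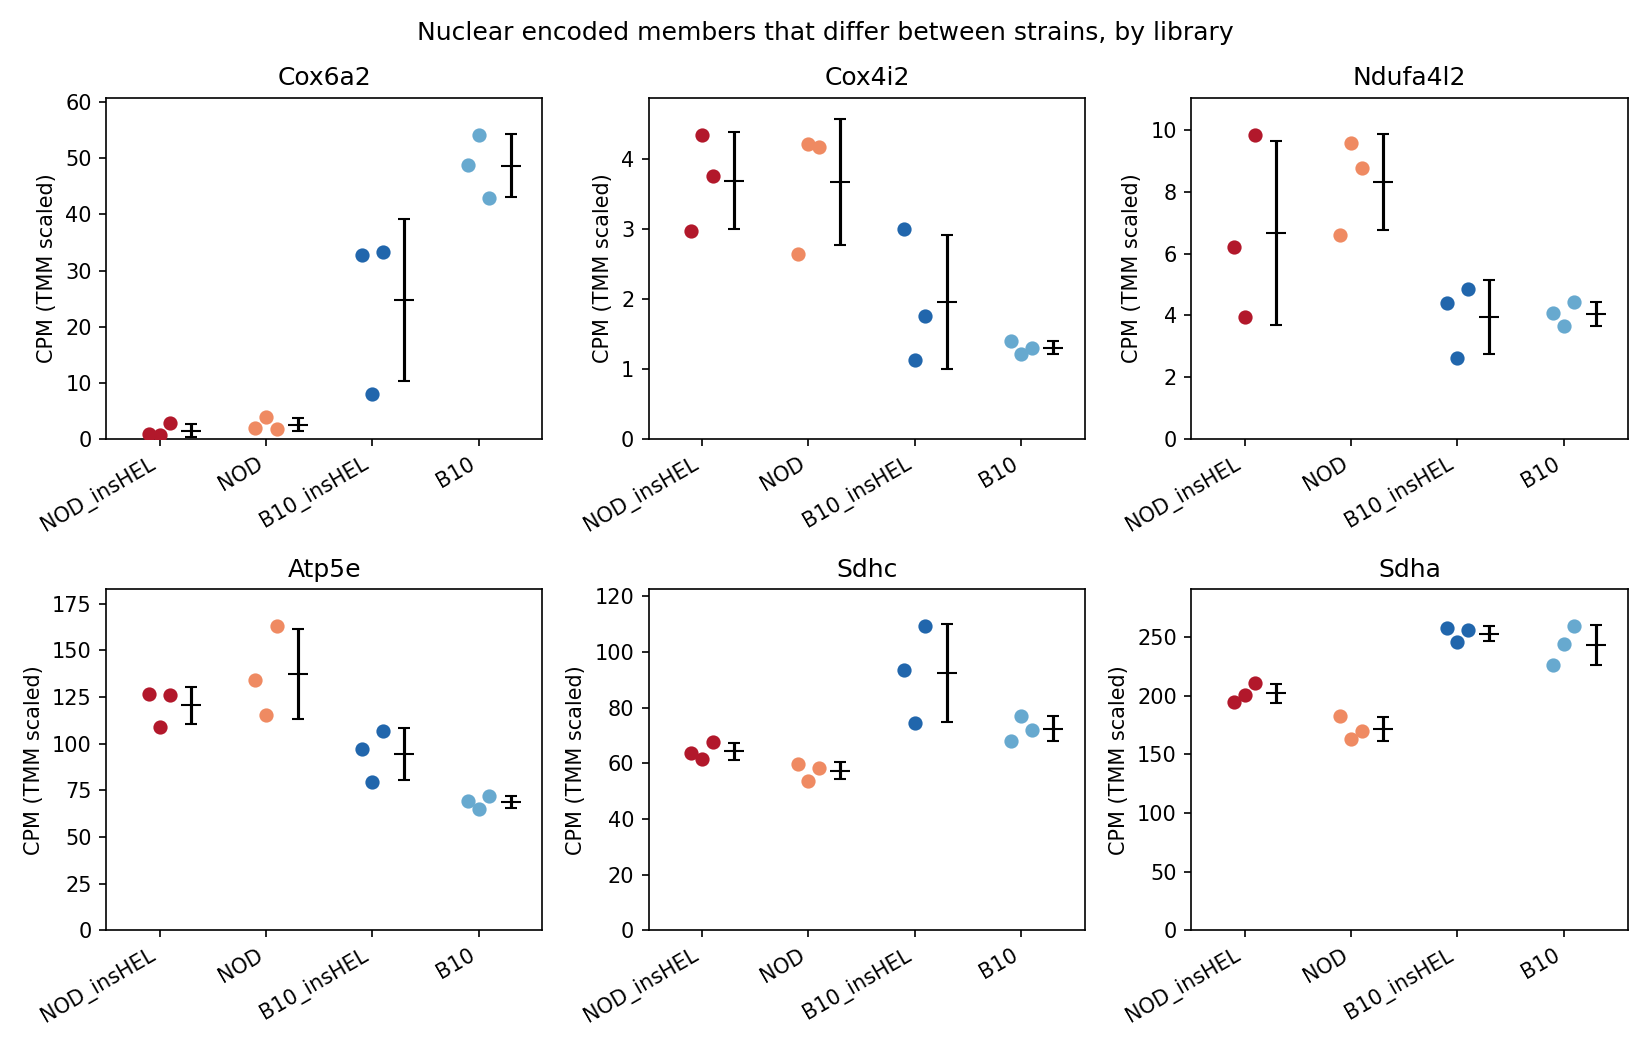
CPM by library of 6 nuclear encoded members called in the averaged strain difference, in NOD_insHEL, NOD, B10_insHEL and B10. Points are libraries, bars are mean ± SD of 3 mice. Cox6a2, Sdhc and Sdha are lower in the NOD background, and Cox4i2, Ndufa4l2 and Atp5e are higher.

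In complex IV the isoforms of 1 subunit went separate ways. Cox6a2, known as the heart and skeletal muscle form of subunit VIa, had 0.862, 0.791 and 2.81 CPM in NOD_insHEL, 1.90, 3.92 and 1.87 CPM in NOD, 32.7, 8.08 and 33.3 CPM in B10_insHEL, and 48.8, 54.2 and 43.0 CPM in B10. The highest library of the NOD background, 3.92 CPM, lay below the lowest of the B10 background, 8.08 CPM, which is B10_insHEL replicate 2. The averaged log2 fold change was -4.34 (SE 0.47, adjusted p = 0.00012, edgeR). It was -4.51 in NOD_insHEL against B10_insHEL (SE 0.76, adjusted p = 0.00475) and -4.18 in NOD against B10 (SE 0.57, adjusted p = 0.000777). These 3 calls held under every alternative run. B10_insHEL replicate 2 had the lowest Cox6a2 of its group and an acinar score close to those of B10, whose 3 libraries had the highest Cox6a2.

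Its partner Cox6a1, the form found in most tissues, averaged 80.8 CPM in NOD_insHEL, 75.8 in NOD, 74.1 in B10_insHEL and 57.1 in B10. Cox6a1 was higher by 0.27 on the log2 scale averaged over the transgene (SE 0.09, adjusted p = 0.0206, edgeR) and by 0.41 in NOD against B10 (adjusted p = 0.0157). The averaged call was lost without NOD_insHEL replicate 1, NOD replicate 3, B10_insHEL replicate 2 or B10 replicate 2, and the NOD against B10 call without NOD replicate 3, B10 replicate 2 or B10 replicate 3. With acinar score added to the fit Cox6a1 was at 0.06 averaged (adjusted p = 0.773, edgeR) and 0.07 in NOD against B10 (adjusted p = 0.849), and with islet number both calls were lost (adjusted p = 0.056 and 0.0551).

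Cox4i2, the form of subunit IV known from lung and other oxygen-sensing tissue, had 2.97, 4.35 and 3.75 CPM in NOD_insHEL, 2.64, 4.21 and 4.17 CPM in NOD, 3.01, 1.13 and 1.75 CPM in B10_insHEL, and 1.40, 1.22 and 1.29 CPM in B10. B10 lay below every library of the NOD background, and B10_insHEL replicate 1 overlapped it. Cox4i2 was higher by 1.20 averaged (SE 0.26, adjusted p = 0.00122, edgeR) and by 1.48 in NOD against B10 (SE 0.35, adjusted p = 0.00351), but not called at 0.91 in NOD_insHEL against B10_insHEL (adjusted p = 0.127). Cox4i1, the common form, was higher in NOD against B10 (0.44, adjusted p = 0.0152) and not called averaged (0.15, adjusted p = 0.232). Cox4i1 lost this call without NOD replicate 1, NOD replicate 3 or B10 replicate 3, and with acinar score added it was at 0.03 (adjusted p = 0.939, edgeR).

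Ndufa4l2, a paralog of Ndufa4 known to be induced by hypoxia, had 6.22, 3.95 and 9.85 CPM in NOD_insHEL, 6.60, 9.58 and 8.77 CPM in NOD, 4.40, 2.61 and 4.84 CPM in B10_insHEL, and 4.09, 3.65 and 4.43 CPM in B10. NOD lay above all 6 libraries of the B10 background, and NOD_insHEL replicate 2 fell among them. The log2 fold change was 0.83 averaged (SE 0.21, adjusted p = 0.00379, edgeR) and 1.04 in NOD against B10 (SE 0.27, adjusted p = 0.00735). Cox4i2 and Ndufa4l2 are also known from pericytes. Of 12 stellate cell and fibroblast markers, pericyte genes among them, 4 were higher and none lower averaged over the transgene. The share called, 33.3%, equalled the 33.3% of all genes (15.7% higher and 17.6% lower). The markers' summed level was 697.5 to 1092 CPM in NOD_insHEL and 704 to 1029 in NOD. In B10_insHEL it was 593 to 877.5 CPM and in B10 575 to 763 CPM. All 12 reached 1 CPM in at least 1 library, and their part in the result was not tested. With acinar score added to the fit the averaged Cox4i2 and Ndufa4l2 differences were 0.76 (adjusted p = 0.189) and 0.55 (adjusted p = 0.227). Ndufa4, counted with complex I by its symbol though its protein is known as a subunit of complex IV, was not called averaged (0.15, adjusted p = 0.211).

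The remaining isoforms of complex IV differed less. Cox7a2, Cox7a2l, Cox8a and Cox6b1 had averaged log2 fold changes of 0.01 to 0.21 and were not called. The muscle or testis forms Cox7a1, Cox7b2, Cox8b, Cox8c and Cox6b2 were below the filter for members, as was Atp5g2 of complex V. Cox7c was lower averaged (-0.70, SE 0.18, adjusted p = 0.00523, edgeR), with libraries at 2.24 to 4.03 CPM in the NOD background and 4.17 to 5.96 CPM in the B10 background. This call was lost with acinar score added (-0.72, adjusted p = 0.0689).

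For some nuclear encoded members the counts of a processed pseudogene, a reverse-transcribed copy of the transcript, moved against those of the gene. Ndufs5, an accessory subunit of complex I, had 0.192, 0.264 and 0 CPM in NOD_insHEL, 1.32, 0.508 and 0.575 CPM in NOD, 8.91, 7.99 and 9.79 CPM in B10_insHEL, and 6.37, 6.84 and 8.51 CPM in B10. Its pseudogene BC002163 had 17.3, 17.3 and 19.2 CPM in NOD_insHEL, 17.5, 14.2 and 19.0 CPM in NOD, 8.16, 7.56 and 8.35 CPM in B10_insHEL, and 7.77, 6.35 and 6.81 CPM in B10. Thus the gene was lower and the pseudogene higher in every library of the NOD background. The averaged log2 fold change was -4.27 for Ndufs5 (SE 0.28, adjusted p = 2.97e-10, edgeR) and 1.21 for BC002163 (SE 0.12, adjusted p = 1.64e-07).

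Both transcripts were the same over 316 of 318 bases compared, and the stretch that holds both differences is shown, with the differing bases in capitals. It lies at chr4:123715960-123716079 on the minus strand for Ndufs5 and at chr16:42955631-42955750 on the plus strand for BC002163 (GRCm38, sequences from the GENCODE vM21 transcripts).
Ndufs5: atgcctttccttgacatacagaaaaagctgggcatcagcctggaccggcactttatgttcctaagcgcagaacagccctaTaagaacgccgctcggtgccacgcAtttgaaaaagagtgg
BC002163: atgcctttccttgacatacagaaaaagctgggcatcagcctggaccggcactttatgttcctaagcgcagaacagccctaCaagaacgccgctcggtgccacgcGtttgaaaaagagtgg
When the counts of both were added before the fit, a step chosen after seeing the data, the log2 fold change of Ndufs5 was 0.20 (SE 0.11, adjusted p = 0.178, edgeR). The summed levels were 17.5, 17.5 and 19.2 CPM in NOD_insHEL, 18.8, 14.7 and 19.6 CPM in NOD, 17.1, 15.6 and 18.1 CPM in B10_insHEL, and 14.1, 13.2 and 15.3 CPM in B10, which overlapped between the backgrounds. GRCm38 is the genome of C57BL/6J, and whether the NOD genome carries other bases at these positions was not tested.

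Ndufa12, another accessory subunit of complex I, was also called lower while its pseudogene Gm15920 was called higher. Ndufa12 had 7.37, 7.64 and 9.38 CPM in NOD_insHEL, 11.3, 8.64 and 13.2 CPM in NOD, 16.7, 16.5 and 22.9 CPM in B10_insHEL, and 15.4, 12.02 and 14.3 CPM in B10. Gm15920 had 16.8, 20.0 and 17.8 CPM in NOD_insHEL, 19.1, 15.0 and 18.0 CPM in NOD, 6.23, 7.30 and 8.25 CPM in B10_insHEL, and 7.13, 6.26 and 4.90 CPM in B10. The averaged log2 fold change was -0.80 for Ndufa12 (SE 0.14, adjusted p = 0.000175, edgeR) and 1.41 for Gm15920 (SE 0.13, adjusted p = 6.11e-08). The backgrounds overlapped for Ndufa12, where NOD replicate 3 lay above B10 replicate 2, and did not overlap for Gm15920. Added together, Ndufa12 was at 0.26 averaged (adjusted p = 0.0747, edgeR), at 0.01 in NOD_insHEL against B10_insHEL (adjusted p = 0.976) and called higher in NOD against B10 (0.50, adjusted p = 0.016). The transcripts were the same over 397 of 399 bases compared, and a stretch with 1 of the differences in capitals is shown. It lies at chr10:94220718-94220837 for Ndufa12 and chr5:130188653-130188772 for Gm15920 (GRCm38, plus strand, GENCODE vM21).
Ndufa12: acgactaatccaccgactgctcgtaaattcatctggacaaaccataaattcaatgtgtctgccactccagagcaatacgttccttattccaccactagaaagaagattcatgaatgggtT
Gm15920: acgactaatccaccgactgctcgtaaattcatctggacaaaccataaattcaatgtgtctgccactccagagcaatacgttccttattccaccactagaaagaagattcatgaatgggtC

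Atp5g1, which encodes the c subunit of the ATP synthase ring, was nearly the same as Gm10039, over 407 of 408 bases. Atp5g1 had 5.46, 6.06 and 4.22 CPM in NOD_insHEL, 3.47, 3.48 and 2.59 CPM in NOD, 5.69, 6.26 and 5.98 CPM in B10_insHEL, and 5.03, 6.57 and 4.36 CPM in B10. Most of the reads of the pair were assigned to the pseudogene, with 54.0, 35.6 and 45.0 CPM in NOD_insHEL, 42.9, 37.9 and 45.9 CPM in NOD, 23.5, 20.6 and 33.8 CPM in B10_insHEL, and 16.4, 15.8 and 13.1 CPM in B10. In NOD against B10, Atp5g1 alone was called lower (-0.73, SE 0.24, adjusted p = 0.028, edgeR), and with Gm10039 added it was called higher (1.15, SE 0.16, adjusted p = 1.95e-05). Alone, its call was also lost without NOD replicate 2, NOD replicate 3 or B10 replicate 2, and with acinar score added (-0.71, adjusted p = 0.257, edgeR). Added counts were also called higher averaged (0.90, adjusted p = 2.99e-06), while Atp5g1 alone was not (-0.43, adjusted p = 0.0609). Its sister genes for the same protein are Atp5g2, below the filter, and Atp5g3, which was not called (0.11, adjusted p = 0.405).

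Of the 79 nuclear encoded members, 35 shared at least 1 window with an annotated pseudogene, and 12 had a pseudogene with 50% or more of its windows inside the member. With the counts of these 15 pseudogenes added, 16 nuclear encoded members were higher and 8 lower averaged over the transgene, against 15 and 11 without. Cox7c was then at -0.12 (adjusted p = 0.541). Gm6969, a pseudogene that shares windows with Cox7a2l, was called higher averaged (1.06, adjusted p = 2.16e-06, edgeR). With its counts added, Cox7a2l was called higher in NOD against B10 (0.36, adjusted p = 0.0200, edgeR), but not averaged (0.19, adjusted p = 0.0797). Ndufs5, Ndufa12, Cox7c, Atp5g1 and Cox7a2l are reported as uncertain, since the counting could split reads between copies.

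**Figure D5:**
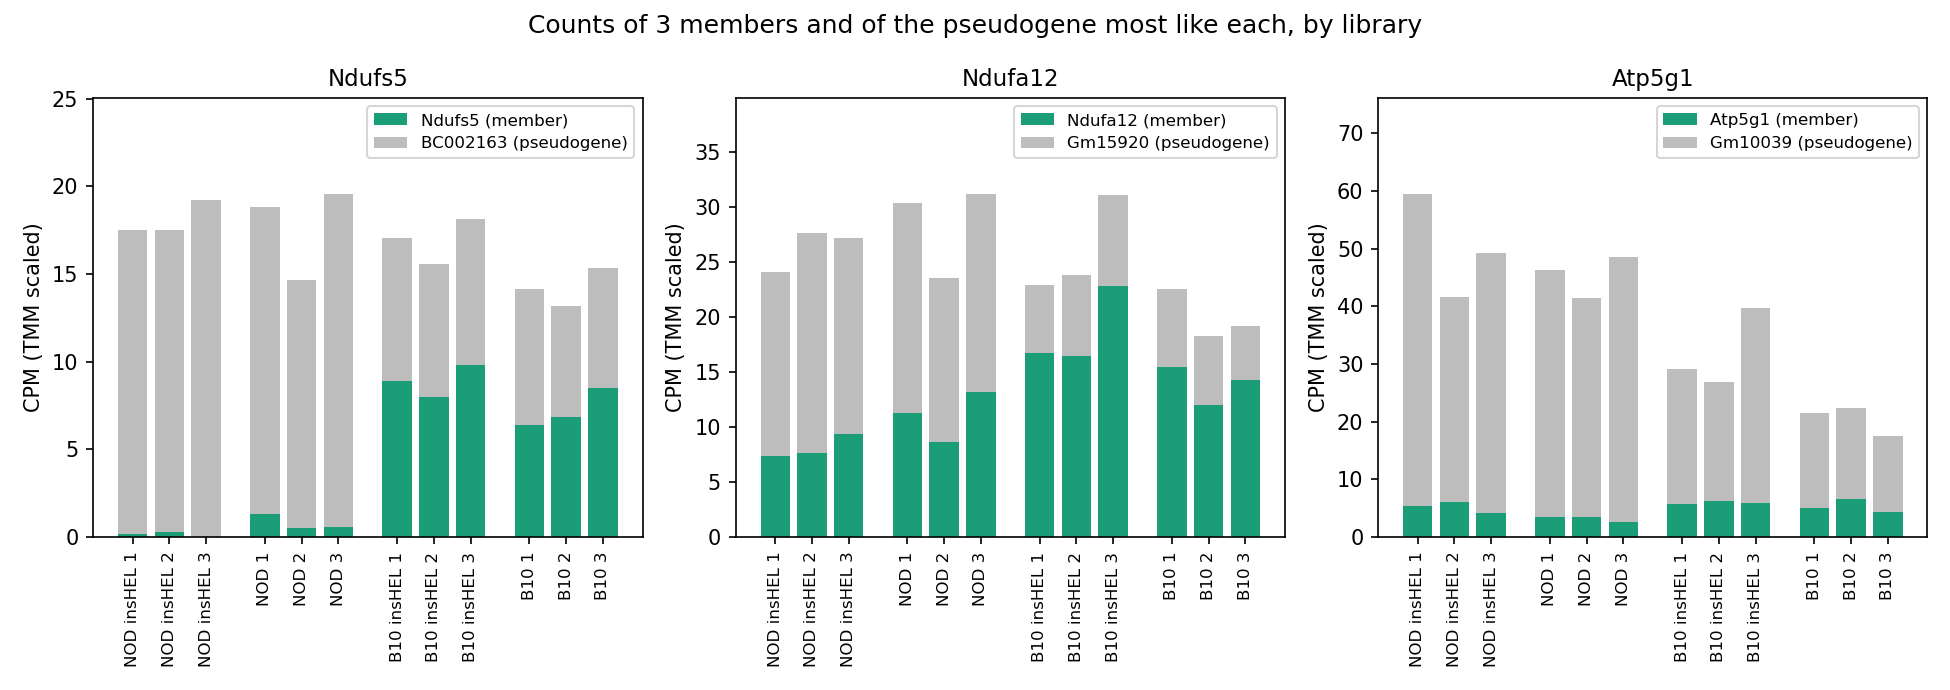
CPM by library of Ndufs5, Ndufa12 and Atp5g1 (green) with the CPM of the processed pseudogene most like each stacked on top (grey), in NOD_insHEL, NOD, B10_insHEL and B10. Ndufs5 is at most 1.32 CPM in the NOD background and at least 6.37 CPM in the B10 background, while the summed height is 13.2 to 19.6 CPM.

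Other complex I members were called too. Ndufc1 was higher by 0.46 (SE 0.11, adjusted p = 0.00237, edgeR), a call lost with acinar score added (0.36, adjusted p = 0.128). Ndufc2 was lower (-0.37, SE 0.09, adjusted p = 0.00335, edgeR), with 62.0, 63.1 and 53.9 CPM in NOD_insHEL and 75.9, 89.0 and 99.4 CPM in B10_insHEL, which did not overlap. Its call held under every alternative run.

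In complex III, Uqcrh, the acidic hinge subunit, was higher by 0.43 (SE 0.11, adjusted p = 0.00589, edgeR), with means of 87.3 ± 18.0 CPM in NOD_insHEL, 69.7 ± 12.2 in NOD, 68.3 ± 8.32 in B10_insHEL and 48.2 ± 6.92 in B10 (SD, n = 3 each). The call was lost with acinar score added (0.29, adjusted p = 0.234, edgeR). The core subunit Uqcrc2 was lower (-0.24, SE 0.07, adjusted p = 0.0167, edgeR), a call lost with islet number added (adjusted p = 0.0705). In complex V, Atp5e, the epsilon subunit of the central stalk, had 126, 109 and 126 CPM in NOD_insHEL, 134, 115 and 163 CPM in NOD, 97.0, 79.5 and 107 CPM in B10_insHEL, and 69.1, 65.2 and 71.8 CPM in B10. All 6 libraries of the NOD background lay above the 6 of the B10 background. Its log2 fold change was 0.67 averaged (SE 0.09, adjusted p = 1.02e-05, edgeR) and 1.00 in NOD against B10 (SE 0.13, adjusted p = 1.08e-05), calls that held under every alternative run, and 0.35 in NOD_insHEL against B10_insHEL (adjusted p = 0.0883), which was not called. Atp5a1 was lower (-0.22, SE 0.07, adjusted p = 0.0253, edgeR), a call lost without NOD_insHEL replicate 2, NOD replicate 2, NOD replicate 3 or B10_insHEL replicate 3, and with islet number added (-0.17, adjusted p = 0.158).

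Few nuclear encoded members were called in the transgene comparisons. In B10_insHEL against B10, 6 of 79 were higher and none lower, 7.59% against 6.85% of all genes. Of the 79, 74 had a log2 fold change above 0, with a median of 0.27 against 0.00 over all genes. Ndufa1, an accessory subunit needed to assemble complex I, had 75.8, 56.1 and 71.5 CPM in B10_insHEL, against 47.7, 42.3 and 41.4 CPM in B10. B10_insHEL lay above B10 in every library, and the log2 fold change was 0.63 (SE 0.12, adjusted p = 0.0041, edgeR). Ndufa4 (0.51), Ndufa2 (0.51), Ndufc2 (0.48), Atp5e (0.46) and Cox6b1 (0.39) were the other 5. The call of Ndufa1 was kept without any 1 library and lost with acinar score added (0.32, adjusted p = 0.452, edgeR), and those of the other 5 were each lost without B10_insHEL replicate 3 or B10 replicate 2, among others. The count was 26 without B10_insHEL replicate 2, whose acinar score was close to those of B10. Over all genes calls rose in that fit too, from 1052 of 15352 to 1566 of 15528. The count of members was 3 without B10 replicate 1, 2 without B10 replicate 3, and 1 without B10_insHEL replicate 3 or B10 replicate 2. All-gene calls were 451 without B10 replicate 1, 428 without B10 replicate 3, 473 without B10_insHEL replicate 3 and 541 without B10 replicate 2. With library totals not scaled by TMM, which moved the median of all genes by -0.14 on the log2 scale, the nuclear median was 0.13 and 1 member was called higher. Over all genes 332 were higher and 1261 lower without TMM, against 628 and 424 with it. With acinar score added to the fit the nuclear median was 0.00, 1 member was called, and it was lower. Over all genes 243 of 15352 were called in that fit.

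In NOD_insHEL against NOD, 3 of 79 nuclear encoded members were higher and 1 lower, 5.06% against 7.06% of all genes, and the median was 0.02. Ndufa1 was higher here too (0.47, SE 0.13, adjusted p = 0.0324, edgeR), with 71.7, 68.8 and 73.2 CPM in NOD_insHEL against 55.0, 43.5 and 56.1 CPM in NOD. Atp5f1, which forms the peripheral stalk of the ATP synthase, had 107, 100.96 and 112 CPM in NOD_insHEL against 75.0, 72.7 and 84.4 CPM in NOD (0.46, SE 0.10, adjusted p = 0.0122). Uqcrc2 was higher by 0.36 (adjusted p = 0.0414, edgeR). Leaving out single libraries ended the call of Atp5f1 without NOD_insHEL replicate 1 or NOD replicate 2, and that of Ndufa1 without any 1 NOD_insHEL library or NOD replicate 2 or 3. The calls of Ndufa1 and Uqcrc2 were also lost without TMM and with acinar score added. Ndufs7, which carries an iron-sulfur cluster of complex I, had 24.1, 24.1 and 25.8 CPM in NOD_insHEL against 35.5, 30.3 and 44.3 CPM in NOD and was lower (-0.57, SE 0.16, adjusted p = 0.0398, edgeR). The calls of Uqcrc2 and Ndufs7 were each lost without NOD_insHEL replicate 1 or 2, NOD replicate 1 or 3, or B10 replicate 1 or 2, and that of Uqcrc2 also without NOD replicate 2 or B10 replicate 3. With library totals not scaled by TMM, 1 nuclear encoded member was higher and 3 lower. Over all genes 285 were higher and 860 lower in that fit, against 596 and 488 with TMM. The median of all genes moved from -0.01 to -0.10. The count of 4 was 0 to 2 without any of 7 libraries: NOD_insHEL replicate 1 or 2, NOD replicate 1, 2 or 3, and B10 replicate 1 or 2. It was 9 without B10_insHEL replicate 2. Over all genes 1522 of 15528 were called without that library, against 1084 of 15352 with all libraries. Without 1 of the 7 libraries above, 107 to 857 were called over all genes.

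Genes that serve oxidative phosphorylation without being its subunits were counted from lists, averaged over the transgene, against the 33.3% of all genes called. Of 11 tested nuclear regulators of mitochondrial genes, 5 were lower and none higher. Ppargc1a, the coactivator known to drive mitochondrial biogenesis, averaged 1.18 ± 0.607 CPM in NOD_insHEL, 1.49 ± 0.427 in NOD, 3.63 ± 1.22 in B10_insHEL and 4.89 ± 0.871 in B10 (SD, n = 3 each), with a log2 fold change of -1.77 (SE 0.26, adjusted p = 2.83e-05, edgeR). The nuclear receptor Esrrg was at -0.39 (adjusted p = 0.0245). Of 47 assembly factors 6 were higher and 5 lower, with Ndufaf6, a complex I assembly factor, at 0.67 (adjusted p = 0.00744, edgeR). Lyrm7, a chaperone of the Rieske protein of complex III, averaged 1.55 ± 0.747 CPM in NOD_insHEL, 1.05 ± 0.229 in NOD, 10.9 ± 1.45 in B10_insHEL and 5.34 ± 2.06 in B10 (SD, n = 3 each), a log2 fold change of -2.67 (SE 0.25, adjusted p = 5.06e-08, edgeR). Whether Lyrm7 has near-identical copies was not tested.

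Of 31 genes of mitochondrial DNA transcription and RNA handling 4 were higher and 2 lower. The mitochondrial topoisomerase Top1mt averaged 2.20 ± 0.881 CPM in NOD_insHEL, 3.43 ± 0.400 in NOD, 0.600 ± 0.149 in B10_insHEL and 1.18 ± 0.107 in B10 (SD, n = 3 each), with a log2 fold change of 1.66 (SE 0.28, adjusted p = 0.000142, edgeR). Slirp, which stabilises mitochondrial mRNAs, was higher by 0.42 (adjusted p = 0.00371). Of 75 mitochondrial ribosomal proteins 12 were higher and 2 lower, with Mrps34 at 0.50 (adjusted p = 0.0012, edgeR) and Mrpl3 at -0.49 (adjusted p = 0.000295). Of 19 genes of the tricarboxylic acid cycle and pyruvate dehydrogenase 2 were lower and none higher, Suclg2 at -0.70 (adjusted p = 0.00023, edgeR) and Pdha1 at -0.44 (adjusted p = 4.85e-05). Of 18 electron carrier genes 2 were higher and 1 lower, with Coq8b at 0.60 (adjusted p = 3.31e-05, edgeR) and Coq8a at 0.42 (adjusted p = 0.00318), both of coenzyme Q synthesis. Of 22 import genes 2 were higher and 1 lower, with Timm23 at 0.94 (adjusted p = 0.0308, edgeR) and Timm13 at 0.38 (adjusted p = 0.012), both of the inner membrane import machinery.

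The 2 ribosomal RNAs of the mitochondrial genome, which a kit that selects polyadenylated RNA catches only in part, were lower in the NOD background averaged over the transgene. mt-Rnr2 had 110, 159 and 193 CPM in NOD_insHEL, 298, 219 and 232 CPM in NOD, 257, 381 and 319 CPM in B10_insHEL, and 300.0, 256 and 211 CPM in B10. NOD_insHEL lay below all the other libraries. Averaged, mt-Rnr2 was at -0.55 (SE 0.15, adjusted p = 0.0109, edgeR) and mt-Rnr1 at -0.39 (SE 0.13, adjusted p = 0.0285). In NOD_insHEL against B10_insHEL both were called lower, and in NOD against B10 neither was. Stress genes also differed: of 18 immediate early and heat shock genes 7 were higher and 2 lower averaged, and their summed level was 563 to 655 CPM in NOD_insHEL, 474 to 714 in NOD, 593 to 840 in B10_insHEL and 592 to 674 in B10. Their part in the results was not tested.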

How the data were processed

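Poly(A) RNA of islets was sequenced per the labels' protocols (stranded mRNA kit, digestion with transcription inhibitors). The authors deposited raw read counts per Ensembl gene, and the build GRCm38 and the tools cutadapt, TopHat2 2.0.8b, HTSeq and DESeq are named per the submitters' processing notes. The annotation release, strand setting and counting mode are not given in the sources used here. Symbols and gene types came from GENCODE vM21 by identifier, and 95.2% of identifiers, with 99.8% of counts, had one.

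Counts of 15352 genes passing filterByExpr were fitted in R 4.3.3 with edgeR 4.0.16 (TMM, 4 group means, robust quasi-likelihood, common biological coefficient of variation 0.142). Tests were two-sided, Benjamini-Hochberg adjusted over all genes tested, with a threshold of 0.05, and the standard error is the absolute log2 fold change over the square root of F. The fit was tested on simulated data. No pair of libraries was identical. Alternatives were DESeq2 1.42.0, other scalings and filters, covariates, a replicate block and leaving out each library. Intervals cover counting error only, since reads carry no molecular identifiers.

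Members and lists were chosen with earlier results of these data known. Named were all mitochondrially encoded members, the 12 nuclear encoded members of largest called averaged strain difference, the 6 largest in each transgene comparison, isoform pairs, the highest member of each complex, and the 2 called genes of largest change in each list. Sdhd, Sdhb, BC002163, Gm15920, Gm10039 and Gm6969 are named outside this rule, after their values were seen. A gene that the rule selects is not reported here. The labels state 3 mice per genotype, and p-values measure the spread between these libraries.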

Additional observations from a re-analysis of the deposited data

How the results depend on the processing

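Counts of called members are given as mitochondrially and then nuclear encoded. The acinar score as a covariate gave 0 and 13 averaged, 0 and 6 in NOD against B10, 2 and 7 in NOD_insHEL against NOD, and 1 nuclear encoded member in B10_insHEL against B10. Over all genes that covariate gave 2303 averaged, 1260 in NOD against B10, 1179 in NOD_insHEL against NOD and 243 in B10_insHEL against B10. Islet number as a covariate gave 16 nuclear encoded members averaged, 14 in NOD against B10 and 2 in B10_insHEL against B10. Over all genes islet number gave 3900, 2688 and 578 in the same order. In NOD_insHEL against NOD, DESeq2 gave 1 mitochondrially encoded member, library totals without TMM 3, and no filter on low counts 2 and 7. Over all genes these fits gave 1404 of 15352, 1145 of 15352 and 1452 of 22976, against 1084 of 15352 in the main edgeR fit. Fitting only the groups compared gave 7 nuclear encoded members in NOD_insHEL against NOD and 1 in B10_insHEL against B10. It gave 1366 of 14436 and 646 of 14778 over all genes, and it gives no averaged or interaction value. In B10_insHEL against B10, DESeq2 gave 10 nuclear encoded members, library totals without TMM 1, and no filter 1 and 12. Over all genes these fits gave 1327 of 15352, 1593 of 15352 and 1472 of 22976, against 1052 of 15352 in the main edgeR fit. Without the filter, the interaction called 1 nuclear encoded member, and 161 of 22976 over all genes. As a mean of log2 values the interaction of the ratio was -0.15.

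The replicate numbers are shared between groups, but of 18 pairs with the same number none had deviations correlated above 0.1 (-0.0950 to 0.0803). A pair with different numbers, B10_insHEL replicate 1 and B10 replicate 3, reached 0.119. The cutoff therefore cannot show whether libraries of the same number were handled together. The replicate block gave 1 mitochondrially encoded member called in each transgene comparison and 10 nuclear encoded members in B10_insHEL against B10. Over all genes the block gave 961 of 15352 in NOD_insHEL against NOD and 1032 of 15352 in B10_insHEL against B10.

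Without single libraries, the counts were 1 to 3 and 17 to 30 averaged, 0 and 5 to 9 in NOD_insHEL against B10_insHEL, 2 to 5 and 11 to 38 in NOD against B10, 0 to 3 and 0 to 9 in NOD_insHEL against NOD, 0 and 1 to 26 in B10_insHEL against B10, and 0 and 0 to 5 in the interaction. Over all genes the calls were 4301 to 5245 averaged, 1344 to 1978 in NOD_insHEL against B10_insHEL and 2868 to 4863 in NOD against B10. They were 107 to 1522 in NOD_insHEL against NOD, 428 to 1566 in B10_insHEL against B10 and 2 to 162 in the interaction. The log2 ratio differences ran from 0.12 to 0.22 averaged, -0.11 to 0.08 in NOD_insHEL against B10_insHEL, 0.27 to 0.45 in NOD against B10, -0.52 to -0.33 in NOD_insHEL against NOD, -0.13 to 0.01 in B10_insHEL against B10 and -0.47 to -0.28 in the interaction.

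With pseudogene counts added, chosen after seeing the data, Ndufs5 was at 0.20 averaged, 0.083 in NOD_insHEL against B10_insHEL and 0.31 in NOD against B10, Ndufa12 at 0.26 averaged and 0.012 in NOD_insHEL against B10_insHEL, and Atp5g1 at 1.15 in NOD against B10. Among the values of named members that were called in the edgeR fit, these 6 were the only ones to change sign under an alternative. Of the other called values under alternatives, 1052 kept direction and call and 177 lost the call. Values not called in that fit were not counted. The causes were not tested. With 3 mice per group and libraries of unequal depth, small changes and transcripts of few counts, such as Ndufs5 in the NOD background, are measured with least precision.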
